A study of Aspergillus nidulans with 4 samples.

Results

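Transcripts of 5 genes of the filamentous fungus Aspergillus nidulans were followed on both strands in 4 RNA-seq libraries: AN4822 and AN4003, both annotated as putative tartrate dehydrogenases, the transporter-like gene AN2831, the oxidoreductase-like gene AN5030 and mdhB (AN5031), a putative malate dehydrogenase gene. They are 5 of the 7752 genes with a sense count in any deposited table. The 5 were selected on the counts themselves, because they were high in medium with tartrate, so their counts and ratios on both strands are given as a description and none is tested.

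All libraries came from mycelium of strain biA1, the study's wild type, whose marker biA1 is known as a biotin requirement, grown in minimal medium at 37 °C for 9 to 12 h. The groups were 0.1% fructose with 10 mM ammonium tartrate, 0.1% fructose with urea, 1% glucose with 10 mM ammonium tartrate and 1% glucose with urea, and the labels give urea both as 10 mM and as 5 mM. Ribosomal RNA was depleted and strand-specific libraries were sequenced. Each group is 1 library made from the combined RNA of 3 cultures, so there is no replicate error and no test between media, and "higher" and "lower" describe these libraries. Tartrate was present only with ammonium, and the kind of sugar changed together with its amount, so tartrate and ammonium, and sugar and concentration, cannot be told apart.

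Tartrate is a dicarboxylic acid that serves here as the counter-ion of ammonium. Tartrate dehydrogenase, known best from Pseudomonas, oxidises tartrate with NAD and belongs to the same protein family as isocitrate and isopropylmalate dehydrogenases. Malate dehydrogenase interconverts malate and oxaloacetate in the citric acid cycle and outside it. In Aspergillus nidulans, glucose is known to repress many genes for the use of other carbon sources through the repressor CreA, and ammonium many genes for the use of other nitrogen sources.

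The summed sense counts of a library ranged between 547041 in fructose with ammonium tartrate and 2606076 in glucose with ammonium tartrate, and antisense counts to between 210543 and 1058595 in the same libraries. A count of 0 allows a true level of up to 3 counts, equal to 5.48 CPM, the count scaled to the summed sense counts of its library, in fructose with ammonium tartrate, 3.69 in fructose with urea, 1.15 in glucose with ammonium tartrate and 1.77 in glucose with urea. The spore-development genes brlA and wA, which vegetative mycelium should lack, had between 0 and 16 sense counts in the libraries that list them. The urea transporter gene ureA, as a check of the nitrogen labels, had 1 count in glucose with ammonium tartrate and 151 in glucose with urea. In the fructose pair this check was weak: ureA had 5 counts in fructose with urea and is not listed for that comparison, and the urease gene ureB had 8 counts in fructose with ammonium tartrate and 72 in fructose with urea, a log2 ratio of -2.30 (-3.66 to -1.34).

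Of the 5 genes, AN4822 alone had a sense count in every library. It had 10897 sense counts in fructose with ammonium tartrate, 35 in fructose with urea, 2904 in glucose with ammonium tartrate and 12 in glucose with urea. On the CPM scale these levels were 19920 (95% Clopper-Pearson interval 19551 to 20294), 43.1 (30.0 to 59.9), 1114 (1074 to 1156) and 7.06 (3.65 to 12.3). Both tartrate media were thus far above both urea media, and within each nitrogen source the fructose library was above the glucose library, with no overlap of the counting intervals. In fructose with ammonium tartrate this gene took 1.99% (1.96% to 2.03%) of all sense counts. In bulk mycelium, more transcript per hypha and more hyphae with the transcript cannot be told apart.

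The other tartrate dehydrogenase gene, AN4003, was high in 1 library. It had 1026 sense counts in fructose with ammonium tartrate, 5 in fructose with urea and 16 in glucose with ammonium tartrate, or 1876 CPM (1763 to 1994), 6.15 CPM (2.00 to 14.4) and 6.14 CPM (3.51 to 9.97). The last 2 levels did not differ beyond counting error, so glucose with ammonium tartrate was not distinguishable from fructose with urea.

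AN2831, annotated with a predicted role in transport across membranes, had the same order with a wider span. It had 2774 sense counts in fructose with ammonium tartrate, 1 in fructose with urea and 5 in glucose with ammonium tartrate. These were 5071 CPM (4884 to 5263), 1.23 CPM (0.0312 to 6.86) and 1.92 CPM (0.623 to 4.48), and the intervals of the lower pair overlapped.

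AN5030, annotated as an NAD-binding oxidoreductase acting on CH-OH groups, had 332 sense counts (607 CPM, 543 to 676) in fructose with ammonium tartrate, 1 in fructose with urea and 0 in glucose with ammonium tartrate. Its neighbour mdhB had 191 (349 CPM, 301 to 402), 0 and 0. For both genes, of the 3 libraries that list them, fructose with ammonium tartrate alone held more than 1 count.

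No count from glucose with urea was available for AN4003, AN2831, AN5030 and mdhB on the sense strand, because neither table of that library lists them. Every gene listed there had at least 10.4 CPM (nitrogen in glucose) or 10.6 CPM (carbon with urea) in the higher library of the pair. The ratios that need glucose with urea could therefore be formed for AN4822 only. Together the 5 genes held 2.78% of the sense counts in fructose with ammonium tartrate, 0.00517% in fructose with urea and 0.112% in glucose with ammonium tartrate.

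**Figure D1:**
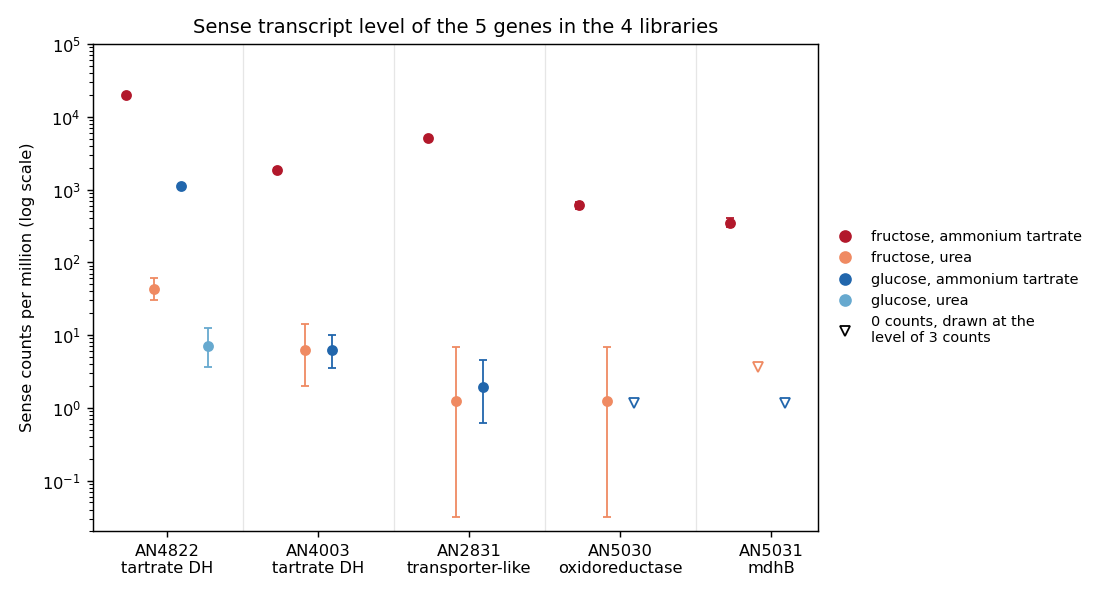
Sense CPM (log axis) of the 5 genes in the 4 libraries, 1 point per library with its 95% counting interval; open triangles are libraries with 0 counts, drawn at the level of 3 counts, and a missing point means that no table lists the gene for that library. AN4822 is high in both tartrate media (19920 and 1114 CPM), while the other 4 genes are high only in fructose with ammonium tartrate among the libraries that list them.

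The first comparison sets ammonium tartrate against urea in fructose. All 5 genes were higher in ammonium tartrate, AN2831 by the most. AN2831 had a log2 ratio of 11.03 (9.73 to 17.51), the highest of the 7203 genes past the abundance minimum of a deposited mean log2 CPM of 3. AN4822 came next at 9.00 (8.58 to 9.58), followed by AN4003 at 8.13 (7.22 to 10.08). AN5030 stood at 7.97 (6.66 to 14.45), and mdhB, with 0 counts in urea, was at least 109-fold higher in ammonium tartrate. At least 4-fold higher, the size used for a call, were 5 of the 5 genes, against 11.0% of all genes past the minimum. Nothing is read from that contrast, since these ratios chose the genes.

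In glucose, ammonium tartrate against urea could be followed for AN4822 alone. Its 2904 counts in ammonium tartrate and 12 in urea gave a log2 ratio of 7.16 (6.44 to 8.20), the highest of 6354 genes. In that comparison 0.535% of genes were at least 4-fold higher in ammonium tartrate. For AN4822 the nitrogen ratio was larger in fructose than in glucose by 1.84 on the log2 scale (0.89 to 2.79, normal approximation for counting error only), from 4 single libraries and with no test.

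The carbon comparison at constant ammonium tartrate also had all 5 genes higher, now in fructose over glucose, and the order of the genes differed. AN2831 stood at 10.91 (10.10 to 12.95) and AN4003 at 8.07 (7.51 to 9.02). AN5030 and mdhB, neither of which had a count in glucose, lay at least 512-fold and at least 294-fold higher in fructose. AN4822 had the lowest ratio of the 5, with 4.12 (4.06 to 4.18), at place 151 of 6647 genes. At least 4-fold higher in fructose were 8.33% of all genes in this comparison, which shares the library of fructose with ammonium tartrate with the nitrogen comparison in fructose. With urea as nitrogen source, AN4822 had 35 counts in fructose and 12 in glucose, a log2 ratio of 2.22 (1.36 to 3.42), where 14.6% of genes were at least 4-fold higher in fructose.

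The p-values and FDRs that the authors deposited rest on an assumed coefficient of variation of 0.3 between cultures, without replicate libraries. They are not used for the 5 genes, which were chosen on the same counts, so low values were fixed in advance. For AN4822 the authors' deposited log2 ratio was 7.23 for nitrogen in glucose and 9.04 for nitrogen in fructose. It was 4.12 for carbon with ammonium tartrate and 2.31 for carbon with urea.

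The tartrate dehydrogenase genes were not in a fixed proportion to each other. Per 100 sense counts of AN4822 there were 9.42 of AN4003 (8.82 to 10.0) in fructose with ammonium tartrate and 0.551 (0.314 to 0.896) in glucose with ammonium tartrate. How alike the sequences of these genes are was not examined here, and reads of near-identical stretches could be counted to either gene. For AN2831 the same numbers were 25.5 (24.4 to 26.5) in fructose and 0.172 (0.0559 to 0.402) in glucose. These proportions compare libraries only and say nothing of which gene is more abundant, since counts are not divided by gene length.

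Antisense counts of all 5 genes were highest in fructose with ammonium tartrate. AN4822 had 2929 antisense counts in fructose with ammonium tartrate, 18 in fructose with urea, 979 in glucose with ammonium tartrate and 5 in glucose with urea. AN4003 had 192, 8, 4 and 0 in the same order. In fructose with ammonium tartrate there were 560 antisense counts of AN2831, 61 of AN5030 and 38 of mdhB, and all 3 genes had 0 in fructose with urea and in glucose with ammonium tartrate. AN4003 departed from its sense pattern at low level: its 8 antisense counts in fructose with urea were 30.2 CPM of that strand (13.1 to 59.6) and its 4 in glucose with ammonium tartrate 3.78 CPM (1.03 to 9.67), while its sense CPM were alike in these libraries.

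The antisense log2 ratio of ammonium tartrate over urea was 7.72 (7.14 to 8.56) for AN4822 in fructose and 6.51 (5.47 to 8.32) in glucose, and 4.86 (4.04 to 6.28) for AN4003 in fructose. AN2831, AN5030 and mdhB were at least 257-fold, 28.0-fold and 17.4-fold higher on that strand in fructose. At least 4-fold higher in ammonium tartrate in fructose were 5 of the 5 genes on the antisense strand, against 13.3% of all genes. In fructose over glucose with ammonium tartrate 5 of 5 passed, against 9.36%. As the antisense counts also entered the choice of the genes, these counts are a description.

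The antisense share of both strands in fructose with ammonium tartrate was 21.2% (20.5% to 21.9%) for AN4822, 15.8% (13.8% to 17.9%) for AN4003, 16.8% (15.5% to 18.1%) for AN2831, 15.5% (12.1% to 19.5%) for AN5030 and 16.6% (12.0% to 22.1%) for mdhB. The median gene of that library, among 4867 with 20 or more counts on both strands together, had 23.5%. In glucose with ammonium tartrate AN4822 had 25.2% (23.9% to 26.6%), against a median of 28.0%. Among the genes of fructose with ammonium tartrate the lower and upper quartiles were 15.7% and 33.9%. The 5 genes were chosen on their counts, so nothing is read from each lying below the median gene in that library. In the urea media AN4822 lay above it, at 34.0% (21.5% to 48.3%) against 20.7% in fructose and 29.4% (10.3% to 56.0%) against 23.9% in glucose, the last with only 17 counts and a median inside its interval. AN4003 had 61.5% (31.6% to 86.1%) of 13 counts in fructose with urea. How much of the antisense signal is transcript and how much is imperfect strand marking was not tested.

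**Figure D2:**
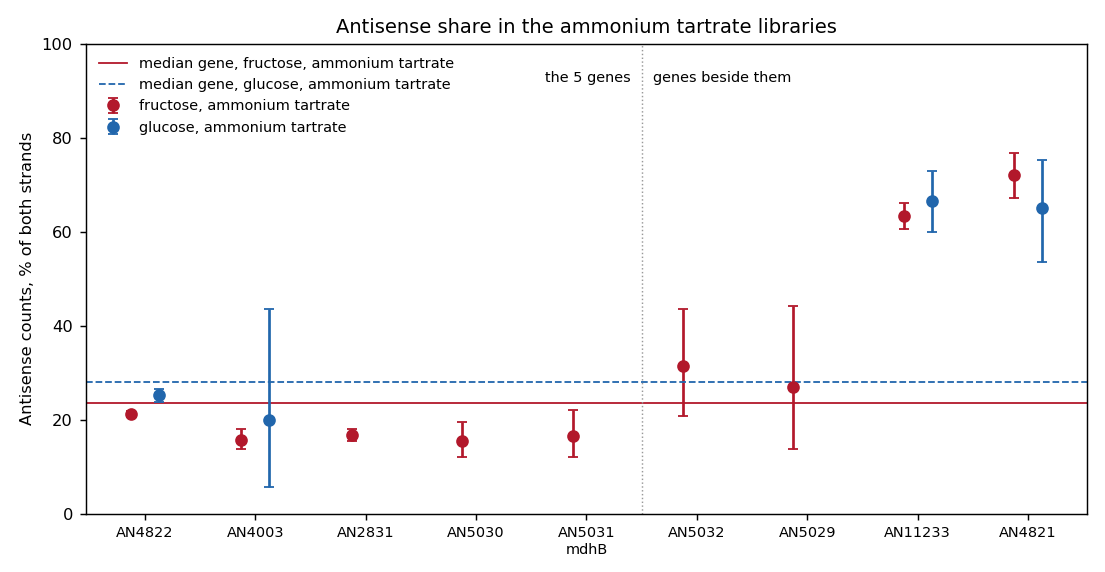
Antisense counts as a percentage of both strands, with 95% Clopper-Pearson intervals, in the ammonium tartrate libraries, for genes with 20 or more counts on both strands together; the lines are the medians over all such genes (23.5% in fructose, 28.0% in glucose). In fructose the 5 genes lie under the line. In glucose AN4822 lies under its line, the interval of AN4003 (5.73% to 43.7%) spans the line, and AN2831, AN5030 and mdhB have no point. AN11233 and AN4821, which flank AN4822, lie between 63.4% and 72.2%.

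Genes beside the 5 were found from the gene order of the RefSeq assembly ASM1142v1, in which all 5 were matched by locus tag. The sources used here do not give the build behind the deposited counts, so no positions are given. AN4822, AN5030 and mdhB lie on chromosome III, AN4003 on chromosome II and AN2831 on chromosome VI. Of the 8 genes that lie directly beside one of the 5 without being one of them, 5 are listed on the sense strand.

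Around mdhB and AN5030, which are adjacent, the flanking genes showed the same pattern. AN5032, on the mdhB side and annotated with a predicted role in membrane transport, had 48 sense counts in fructose with ammonium tartrate, 3 in fructose with urea and 0 in glucose with ammonium tartrate. AN5029, on the AN5030 side and annotated as a predicted substrate-specific transporter, had 27, 0 and 0. AN5032 had a log2 ratio of ammonium tartrate over urea in fructose of 4.29 (3.14 to 7.10), and AN5029 was at least 15.4-fold higher. In fructose over glucose with ammonium tartrate they were at least 74.0-fold and at least 41.6-fold higher. A run of 4 neighbouring genes was thus highest in the same library of the 3 that list them. It holds a pair of dehydrogenase-like genes between a pair of transporter-like genes. Whether the counts of AN5032 or AN5029 come from transcripts of mdhB or AN5030 that run past their ends was not tested.

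The pattern did not extend to the next genes outward, which were looked at after the values of the run were seen. ppoC (AN5028), a fatty acid oxygenase gene, had 438 sense counts in fructose with ammonium tartrate, 1915 in fructose with urea, 865 in glucose with ammonium tartrate and 161 in glucose with urea. AN5033, a predicted cell-surface protein gene, had 0 counts in fructose with ammonium tartrate and 11 in fructose with urea.

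Both genes beside AN4822 were high in fructose with ammonium tartrate. AN11233, annotated with chitinase domains, had 424 sense counts in fructose with ammonium tartrate, 4 in fructose with urea, 71 in glucose with ammonium tartrate and 1 in glucose with urea. AN4821, a predicted DNA-binding zinc protein gene, had 98, 2, 28 and 12. Their nitrogen log2 ratios in fructose were 7.11 (6.13 to 9.38) and 5.69 (4.49 to 9.45). In glucose AN11233 stood at 4.68 (2.96 to 10.80), while AN4821 stood at 0.52 with an interval from -0.47 to 1.66 that included 0.

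Unlike AN4822, both flanking genes had more antisense than sense counts in the tartrate media. AN11233 had 735 antisense counts in fructose with ammonium tartrate and 142 in glucose with ammonium tartrate, 63.4% (60.6% to 66.2%) and 66.7% (59.9% to 73.0%) of both strands. AN4821 had 254 and 52, which were 72.2% (67.2% to 76.8%) and 65.0% (53.5% to 75.3%). The urea media had few counts. There the antisense share of AN11233 was 55.6% of 9 counts in fructose and 90.9% of 11 in glucose, and that of AN4821 80% of 10 and 14.3% of 14. Of all genes with 20 or more counts, 7.36% in fructose and 5.97% in glucose with ammonium tartrate were mostly antisense. Per 100 sense counts of AN4822 in the tartrate media, AN11233 had 3.89 sense and 6.74 antisense counts in fructose and 2.44 and 4.89 in glucose, and AN4821 had 0.899 and 2.33 in fructose and 0.964 and 1.79 in glucose. In fructose with urea they were 11.4 and 14.3 for AN11233 and 5.71 and 22.9 for AN4821. In glucose with urea, where AN4822 had 12 sense counts, they were 8.33 and 83.3 for AN11233 and 100 and 16.7 for AN4821. AN11233 and AN4821 lie on opposite sides of AN4822. Whether the counts of either gene come from transcripts of AN4822 that run past its end was not tested.

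The other neighbours had few counts or were unlisted. AN4002, a monooxygenase-like gene, lies beside AN4003. It had 14 sense counts in fructose with ammonium tartrate, 4 in fructose with urea and 16 in glucose with ammonium tartrate. For AN4003 these were 1026, 5 and 16. The nitrogen log2 ratio of AN4002 in fructose was 2.26 (0.91 to 4.64), past 4-fold but with an interval that reached below it. Its carbon ratio with ammonium tartrate was 1.91 (0.87 to 3.14). AN11423, on the other side of AN4003, and AN2832 and AN2830, on either side of AN2831, are listed in no sense table.

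**Figure D3:**
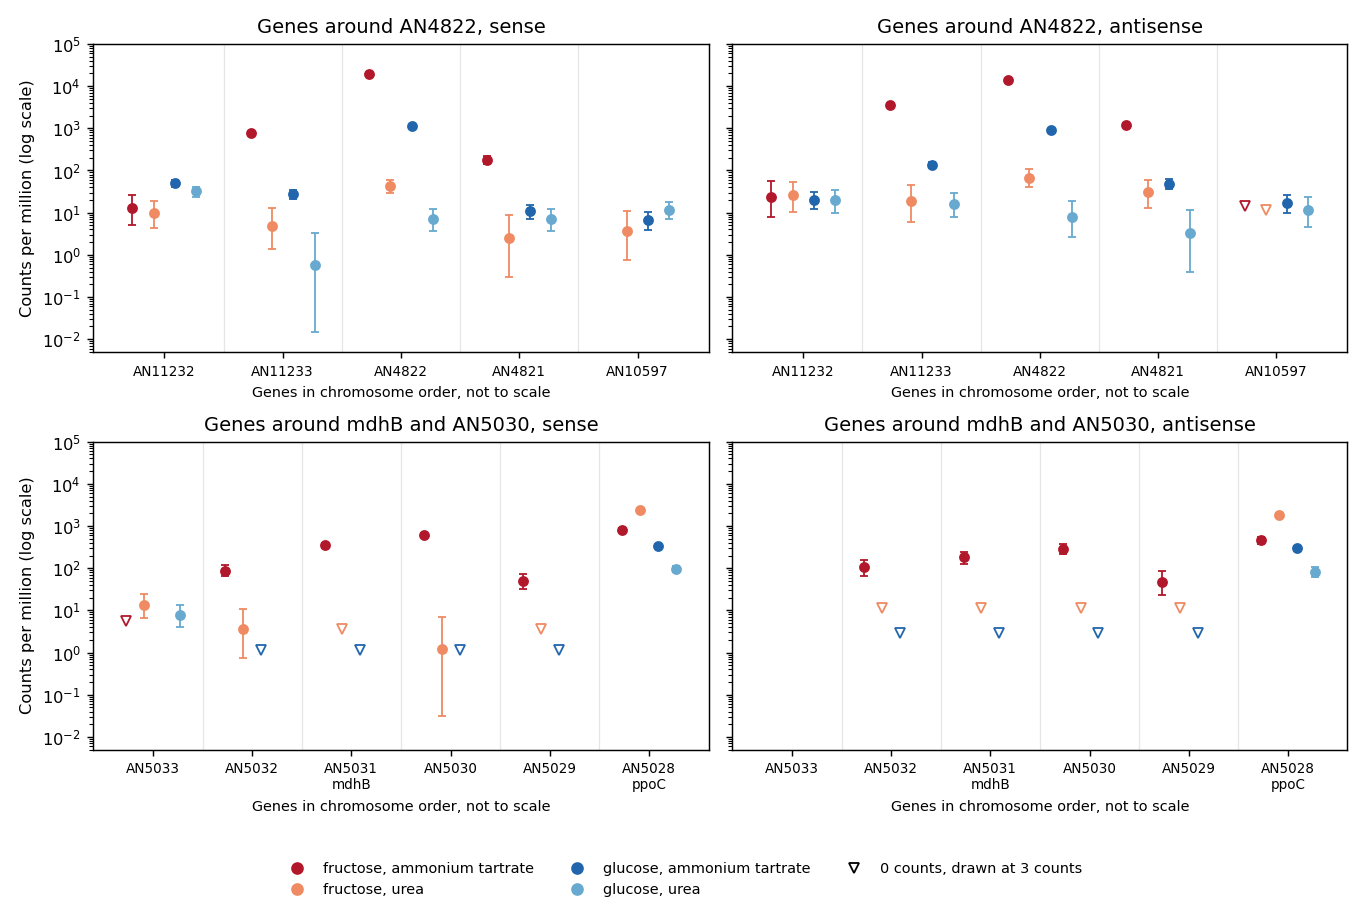
CPM (log axis) on the sense and antisense strand for genes in chromosome order around AN4822 and around mdhB and AN5030, with 95% counting intervals and 0 counts drawn as triangles at the level of 3 counts. In the lower panels AN5032, mdhB, AN5030 and AN5029 have their highest point in fructose with ammonium tartrate and AN5033 and ppoC do not; in the upper panels AN11233 and AN4821, like AN4822, have their highest point on both strands in fructose with ammonium tartrate.

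Few genes were higher in ammonium tartrate in both sugars. The comparison in fructose and that in glucose have no library in common. Of the 6024 genes abundant enough for both, ammonium tartrate was at least 4-fold above urea for 27 in glucose, for 701 in fructose and for 5 in both. These 5 are 18.5% of the glucose list, while 11.0% of the 7203 genes past the minimum in fructose were at least 4-fold higher there. They are 0.713% of the fructose list, while 0.535% of the 6354 genes past the minimum in glucose were at least 4-fold higher there. Both all-gene shares are over the genes of their own comparison and not over the 6024. The size of the overlap was not tested, and AN4822, chosen on its counts, is 1 of the 5. Besides AN4822 and AN11233 the shared genes were AN7108, AN3961 and AN0304.

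AN7108, annotated through orthologs with ATP binding, had 764 sense counts in fructose with ammonium tartrate, 10 in fructose with urea, 270 in glucose with ammonium tartrate and 17 in glucose with urea. AN3961, of no described function, had 348, 1, 118 and 10. AN0304, whose orthologs have a role in protein sumoylation, had 18, 6, 39 and 4. AN7108 and AN3961 were thus high in both tartrate media, whereas the fructose ratio of AN0304, 2.14, had an interval from 0.96 to 3.98 and rests on few counts.

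**Figure D4:**
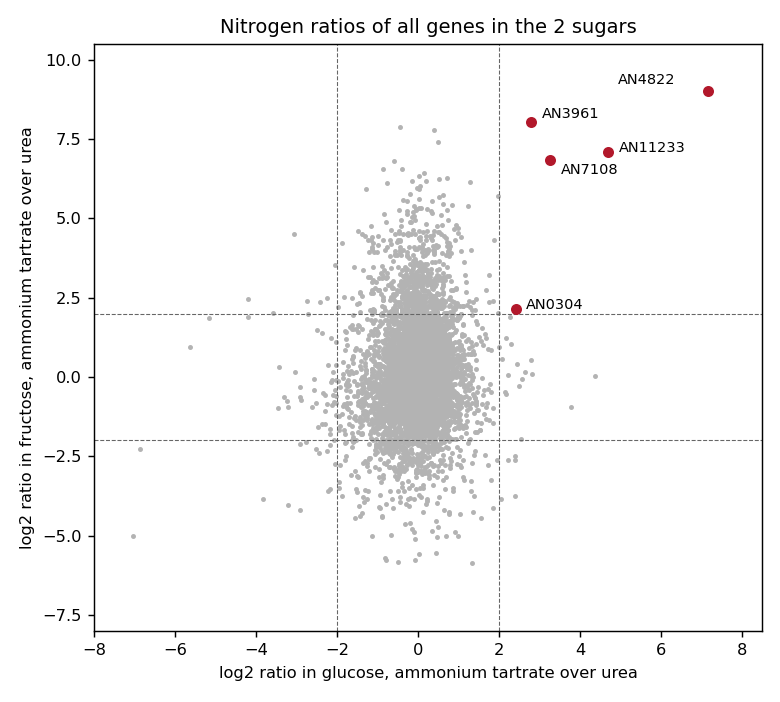
Log2 ratio of ammonium tartrate over urea in glucose (x axis) and in fructose (y axis) for the 6024 genes past the abundance minimum in both comparisons, 1 point per gene; dashed lines mark 4-fold. The 5 genes past 4-fold in both are named, and AN4822, at 7.16 and 9.00, lies farthest from the rest.

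By the distance between log2 profiles centred over the 4 libraries, the genes nearest to AN4822 among 6789 were AN11233, AN7108 and AN3961, at 2.29, 3.38 and 3.86 log2 units. The other 4 genes have profiles over 3 libraries only, a setting chosen after the values were seen. Among the 5 genes themselves AN4003 and mdhB were closest, at 0.60, and AN4822 stood 3.56 or more from each of the others. mdhB had 0 counts in fructose with urea and in glucose with ammonium tartrate, so the prior count sets its profile there. Distances among the 5 genes were not computed with another prior count. AN5029 was among the 3 nearest outside genes of AN4003, AN2831, AN5030 and mdhB.

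gpdC (AN2583), a glyceraldehyde-3-phosphate dehydrogenase gene, was among the 3 nearest of AN2831, AN5030 and mdhB. It had 983 sense counts in fructose with ammonium tartrate, 34 in fructose with urea, 10 in glucose with ammonium tartrate and 8 in glucose with urea. AN11965, which has no description, was among the 3 nearest of AN4003, AN2831 and mdhB, with 104 counts in fructose with ammonium tartrate, 0 in fructose with urea and 7 in glucose with ammonium tartrate. The remaining nearest genes were AN10506 for AN4003 and the beta-glucosidase gene bglR (AN9183) for AN5030. A likeness over so few libraries, with many 0 counts, is a description.

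Between ammonium tartrate and urea in fructose, 4 other genes of malate metabolism had smaller ratios than mdhB. The mitochondrial malate dehydrogenase gene mdhA had 112 sense counts in fructose with ammonium tartrate and 90 in fructose with urea, a log2 ratio of 1.08 (0.67 to 1.50). mdhC, a gene of the same description as mdhB, had 143 and 97, with 1.32 (0.95 to 1.72). maeA, a gene for the oxidation of malate to pyruvate, stood at 1.87 (1.66 to 2.09) and the putative malate dehydrogenase gene AN7633 at 0.14 (-0.98 to 1.23). None of these 4 reached 4-fold by its ratio, while mdhB was at least 109-fold higher. Nothing is read from that contrast, since mdhB was chosen on its counts and the 4 were named after their values were seen. acuE, whose description names malate or a related acid, was past 4-fold lower in ammonium tartrate, at -2.05 (-2.44 to -1.71).

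Of 31 measured genes of the citric acid cycle list, 9 including mdhB were at least 4-fold higher in ammonium tartrate in fructose and 0 lower, against 11.0% higher and 11.4% lower of all genes. The list median was 0.91, or 0.89 without mdhB, and that of all genes -0.07. After mdhB, the genes with the largest ratios were aclA at 3.62 (2.75 to 5.09) and aclB at 3.55 (3.30 to 3.84), both for the ATP citrate synthase that makes acetyl-CoA outside the cycle, lysB at 3.60 (2.73 to 5.06), for homoisocitrate dehydrogenase of lysine synthesis, and carC at 3.48 (1.86 to 9.98), for succinate dehydrogenase. In glucose 0 of 28 passed in either direction, against 0.535% higher and 1.34% lower of all genes. The ratios in fructose went with low counts in fructose with urea. With urea, 5 of 29 genes of the list were higher and 8 lower in fructose than in glucose, against 14.6% and 15.2% of all genes, with aclB at -4.70 (-4.97 to -4.45), aclA at -4.43 (-5.78 to -3.56) and lysB at -2.23 (-3.60 to -1.28). With ammonium tartrate the carbon ratio was -0.67 (-1.07 to -0.30) for aclA and -1.27 (-1.37 to -1.17) for aclB, unlike the 5 genes, which were higher there.

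Of the 6 isocitrate, isopropylmalate and homoisocitrate dehydrogenase genes besides the tartrate dehydrogenases, 3 were at least 4-fold higher in ammonium tartrate in fructose and 0 lower, against 11.0% and 11.4% of all genes. They were lysB, AN0912 of leucine synthesis at 2.89 (2.10 to 4.05) and AN1003 of the citric acid cycle at 2.06 (1.59 to 2.62). In glucose 0 of 6 passed in either direction, against 0.535% higher and 1.34% lower of all genes. The same 3 were at least 4-fold lower in fructose over glucose with urea, with AN0912 at -5.15 (12 counts in fructose and 785 in glucose) and AN1003 at -2.25 (46 and 384 counts), and 1 of the 6, idpA, was higher. Of all genes, 15.2% were lower and 14.6% higher in that comparison. In fructose over glucose with ammonium tartrate 1 of 5 was at least 4-fold higher and 0 lower, against 8.33% and 7.01% of all genes. It was idpA, for the NADP-dependent isocitrate dehydrogenase, at 3.18 (2.73 to 3.74).

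Of the genes of the glyoxylate cycle and gluconeogenesis, pathways for growth on non-sugar carbon, 2 of 15 were at least 4-fold higher and 2 lower in ammonium tartrate than in urea in fructose. In fructose over glucose with ammonium tartrate 6 of 15 were higher and 1 lower, against 8.33% and 7.01% of all genes, with a list median of 1.51 and an all-gene median of -0.11. With urea the same comparison had 8 of 15 higher and 1 lower and a list median of 2.20, against an all-gene median of -0.03, so the list median was above that of all genes with either nitrogen source. Of 8 genes matched by words for a list of 2-hydroxyacid, lactate and formate dehydrogenases, 4 were higher and 1 lower in ammonium tartrate in fructose. No description held the words hydroxyacid dehydrogenase. Among the higher was D-lactate dehydrogenase gene AN0628 at 3.10 (2.69 to 3.59). The lower was amdA at -3.80 (-9.89 to -1.99), with 1 count in ammonium tartrate and 40 in urea. The match is by words, so amdA need not be a dehydrogenase gene itself. In fructose over glucose with urea 0 of 8 were higher and 4 lower. The lists overlap. Of 17 further genes whose description names tartrate, malate, glycerate, oxaloacetate or dicarboxylic acids, 4 were higher and 1 lower in the same nitrogen comparison, and in fructose over glucose with urea 2 of 18 were higher and 6 lower. For each of these lists, the all-gene shares were 11.0% higher and 11.4% lower for nitrogen in fructose. For fructose over glucose with urea they were 14.6% and 15.2%.

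Among 333 genes described as transporters other than AN2831, 44 were at least 4-fold higher and 63 lower in ammonium tartrate in fructose, against 11.0% and 11.4% of all genes, with a median of -0.22. In fructose over glucose with ammonium tartrate 53 of 290 were higher and 22 lower, against 8.33% and 7.01% of all genes. With urea 91 of 318 were higher and 58 lower, against 14.6% and 15.2% of all genes. Of the 4 with the largest ratios in the nitrogen comparison in fructose, AN8084 and AN2544, both annotated as predicted substrate-specific transporters, were lower in ammonium tartrate. AN8084 had 0 counts in ammonium tartrate and 353 in urea, at least 68.9-fold lower, and AN2544 had 0 and 97, at least 18.9-fold lower. The others were AN2584, higher at 5.71 (4.95 to 7.04), and AN8374, an oligopeptide transporter-like gene with 53 counts in ammonium tartrate and 0 in urea, at least 30.2-fold higher. A list of 3 other genes that share the wording of AN5030's description was chosen after the values were seen. In ammonium tartrate over urea in fructose, 0 were called at least 4-fold higher and 1 lower, against 11.0% and 11.4% of all genes. The lower gene was AN8030, with 0 counts in ammonium tartrate and 14 in urea. Its call rests on the prior count, and by its bound it was only at least 2.73-fold lower.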

How the data were processed

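Per the file headers, the authors deposited 8 tables, 1 for each of 4 comparisons and 2 strands, which hold whole-number read counts of both libraries. The same deposited tables give log2 fold changes, p-values with their FDR, and mean log2 CPM per gene. HTSeq and edgeR are named, without versions, in the submitters' processing notes, and the table names carry the assumed coefficient of variation of 0.3. The sources used here give no aligner, build or annotation. The 16 columns of normalised values were not used. A library's counts did not differ between its tables.

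CPM used the summed listed counts of the strand. A log2 ratio was ammonium tartrate over urea or fructose over glucose, with TMM scaling (edgeR 4.0.16, R 4.3.3) and a prior count of 1. For genes with 20 or more counts in both libraries it lay within 0.0827 of the deposited log2 value. Intervals are 95% Clopper-Pearson intervals (scipy 1.17.1) without the prior count, and a gene at 0 is bounded against 3 counts per library. Both cover counting error only, since reads of amplified libraries are not independent molecules. Genes past a mean log2 CPM of 3 with a ratio of 4-fold or more were called. For a gene at 0 in 1 library the ratio held the prior count, so a called gene can have a bound under 4-fold. The scripts were tested on simulated data. Alternatives were DESeq2 1.42.0 size factors, total counts, other prior counts and other minima.

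The 5 genes and the lists were chosen with earlier results of these data known. Named besides the 5 are genes past 4-fold in both nitrogen comparisons, the 3 nearest profiles of each gene, direct neighbours and up to 4 list members with the largest ratios. ppoC, AN5033, the malate dehydrogenase genes and a few list examples were named after their values were seen. Of the spore-development markers fixed as a list, only brlA and wA matched by symbol.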

Additional observations from a re-analysis of the deposited data

How the results depend on the processing

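The values of the 5 genes kept their direction under all alternatives tried. Of 167 alternative values, 163 lay within the counting interval of the reported value or, for bounds, within 1.5-fold of it. Many of the 163 could not have differed. Another abundance minimum, or a minimum of counts for the antisense share, keeps or drops a gene but leaves its own value unchanged. Those alternatives are therefore no check of the values, and only the other scalings, prior counts and deposited fold changes are. The values outside these limits all came with a prior count of 5, which by construction draws ratios of genes with few counts towards 0. AN2831 then stood at 9.34 for nitrogen and 9.92 for carbon with ammonium tartrate, AN5030 at 6.29 for nitrogen in fructose, and AN4003 antisense at 6.36 for carbon with ammonium tartrate. The fructose minus glucose difference for AN4822 lay between 1.60 and 1.97.

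Counts of genes past 4-fold depended on the minimum and the prior count. With a minimum mean log2 CPM of 5, 8 genes in place of 34 were higher in ammonium tartrate in glucose, 499 higher in place of 790 and 391 lower in place of 822 in fructose, and 275 in place of 554 and 625 in place of 1044 higher in fructose with ammonium tartrate and with urea. Lower were 28 in place of 85 in ammonium tartrate in glucose, and 184 in place of 466 in fructose with ammonium tartrate. On the antisense strand 547 in place of 961 and 291 in place of 629 were higher. With a prior count of 5 the numbers were 20 higher and 55 lower for nitrogen in glucose, 479 lower for nitrogen in fructose and 374 for antisense nitrogen in fructose. The higher minimum tests fewer genes by construction; for the prior count the cause was not tested.

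With a prior count of 5, the 3 nearest profiles of AN4003, AN5030 and mdhB shared 1 gene with those reported, those of AN2831 shared 2 and those of AN4822 all 3. No paired analysis was possible because each medium has 1 library, and none could be left out for the same reason. AN4822 has no value for carbon with urea at the minimum of 5, which it does not reach, and lower bounds have no alternative by prior count or deposited fold change. Depth limits the low levels: 3 counts are 5.48 CPM in fructose with ammonium tartrate.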
